A study of Drosophila melanogaster x Drosophila sechellia and Drosophila melanogaster and Drosophila sechellia with 12 samples.

Results

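The sites described here were 274 adenosines whose RNA editing level differed between the fruit flies Drosophila melanogaster and Drosophila sechellia by 5 percentage points or more. They were chosen from 1058 measured sites by the levels of the separate parents. A site had to hold at least 50 reads of its own species in each of the 4 parent libraries, and its pooled level had to lie under 95% in both species. Of the 1058 sites, 891 met the read minimum and 852 of these also lay under 95%. The difference was 5 points or more at 274 of the 852, with 114 sites higher in D. sechellia and 160 higher in D. melanogaster. Because the parental levels chose the sites, parental values are given only as a description, and every test below compares libraries that held both species.

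RNA editing by Adar (adenosine deaminase acting on RNA) turns adenosine into inosine within double-stranded stretches of RNA. Inosine pairs like guanosine, so an edited position appears as G in place of the A of the gene, and the editing level is the percentage of G among the A and G reads. Flies have a single Adar gene, which acts mainly in the nervous system, where many transcripts of ion channels and of the synaptic release machinery are recoded. How strongly a site is edited is known to depend on the RNA fold around it, which belongs to each allele, and on the amount and activity of Adar, which both alleles of a hybrid share. Sites are given by chromosome arm and position in the dm3 build of the D. melanogaster genome. The tables carry no gene names or sequences, and the gene, exon or UTR of a site was not assigned here.

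Heads of adult females aged 0 to 2 days were used in every group, and editing loci were amplified by multiplex PCR and sequenced (mmPCR-seq). The separate parents were D. melanogaster (n = 2 libraries) and D. sechellia (n = 2). The mixed parents (n = 2) combined material of both species in 1 library, the F1 (n = 3) were hybrids of the 2 species, and the Adar F1 (n = 3) were hybrids whose D. melanogaster parent brought a mutant Adar gene. The labels do not name the parental stocks, the Adar mutation, the stage at which the parents were mixed or the number of heads per library, and they do not say whether replicates came from separate sets of flies. The tests can thus take in no more than the variation among these libraries, part or all of which may be technical.

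In the mixed parents the alleles of a site were read from 1 library but came from separate animals. Whether they also shared 1 amplification is not known. In the F1 they shared the same cells, and in the Adar F1 they shared cells with a mutant copy of Adar. The gap of a site is its level on the D. sechellia allele minus that on the D. melanogaster allele, in percentage points, so that a positive gap means more editing of D. sechellia RNA. A site was tested where each allele had at least 50 reads in every library compared and the mean level was at least 1%. Each site was fitted with a quasi-binomial regression, p-values were adjusted over all sites tested, and a site passed at an adjusted p under 0.05. All 9 comparisons were made in whole heads. Between animals, less editing per transcript and a different make-up of the cells cannot be told apart. Within a hybrid library both alleles came from the same cells, but how much each cell type expressed of each allele was not measured.

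Libraries held 251870 to 398284 A and G reads. At the 274 sites the median depth of the D. melanogaster allele was 130 to 140 reads in the mixed parents, 150.5 to 174 in F1 and 160 to 198 in Adar F1. For the D. sechellia allele it was 83 to 91, 86 to 97 and 68.5 to 89.5 reads. These are PCR reads without molecular identifiers, so they are not independent molecules. Reads of the wrong species made up 0.295% to 0.332% of the reads at these sites in the D. melanogaster libraries, 0.273% in D. sechellia replicate 2 and 2.93% in D. sechellia replicate 1. Among the 274 sites, 94 of 114 and 120 of 160 had under 1% of such reads in the pooled libraries of each species. Gaps at those sites had medians of 8.58 and −8.05 points in the mixed parents and 6.17 and −7.896 in F1. Where such reads made up 1% or more, the medians were 10.6 and −9.17 in the mixed parents and 2.90 and −9.37 in F1, over 7 to 12 sites. Of these sites 0 of 7 and 7 of 11 passed in F1, against 40 of 74 and 49 of 81 of the others. On the X, 28 of 73 diverged sites had 1% or more of such reads, with up to 29.3%, against 32 of 201 elsewhere, and their part in the results was not tested.

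Some libraries stood apart in how reads were spread over sites. Among the separate parents, whose levels chose the sites, replicates differed by a chi-square per degree of freedom of 6.0997 in D. melanogaster. In D. sechellia the value was 7.1995, the largest of any pair of replicates. F1 replicates 1 and 2 differed by a chi-square of 1.71 per degree of freedom, while replicate 3 differed from them by 5.13 and 4.62 and from the mixed parents by only 2.16 and 2.01. Adar F1 replicate 1 differed from the other two by 6.01 and 5.605, which differed from each other by 1.75. Log2 coverage correlated at 0.905 to 0.987 among F1 libraries but only at 0.491 to 0.563 between F1 and Adar F1. Every Adar F1 library lies on one side of that break, so the Adar mutation and whatever set its coverage cannot be told apart. Counts of calls in F1 and Adar F1 are given with and without F1 replicate 3 and Adar F1 replicate 1.

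The selected differences were mostly modest. Of the sites higher in D. sechellia, 65 differed by 5 to 10 points, 33 by 10 to 20 and 16 by 20 or more, and of those higher in D. melanogaster the numbers were 69, 60 and 31. Just inside the limit were 2L 9717707 and X 13607573 with differences of 5.001 and 5.07 points, and 3L 11168869 and 2L 11159902 with −5.08 and −5.11. Just outside it were 3L 16104005 and 3L 9826464 at 4.98 points each, and 3R 15056819 and 3R 3848991 at −4.94 and −4.97. Under the 95% limit the nearest sites were 3L 2941364 and 3R 1062054, at 94.3% and 94.4% in D. sechellia. Left out just over it were 2L 8201379 and 2R 6708460, both at 95.3% in D. melanogaster. At some chosen sites the D. sechellia replicates disagreed in level. They stood at 43.9% and 77.7% at 2L 17371342, where the D. melanogaster replicates were at 69.2% and 71.6%. At 3R 5492569 they stood at 48.2% and 86.1%, against 78.7% and 82.5%. Both sites counted as higher in D. melanogaster, which D. sechellia replicate 2 alone does not show. How many sites were of this kind was not counted.

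Diverged sites lay on every chromosome arm and were often neighbours. They made up 28.4% to 30.8% of the comparable sites of 2L, 2R, 3L, 3R and chromosome 4, and 45.3% of the 161 comparable sites of the X, where 28 were higher in D. sechellia and 45 in D. melanogaster. Joining sites that lay within 1000 bases of the next gave 309 stretches, of which 152 held a diverged site and 59 held 2 or more. The most in a single stretch was 9. Those 59 stretches held 181 of the 274 sites, so sites are not independent of each other. In 39 of them all diverged sites pointed the same way, and in 20 both directions occurred. Of 55 pairs of adjacent diverged sites no more than 10 bases apart, 44 had the same direction and 11 opposite directions. Among 36 pairs 11 to 50 bases apart 25 shared a direction, and among 31 pairs 51 to 1000 bases apart 24 did.

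The first question was whether a difference seen between separate parents was also seen between alleles read from the same library. In the mixed parents, 38 of 81 tested sites that were higher in D. sechellia passed with the D. sechellia allele higher, and none passed the other way. Over all 518 sites tested, 10.6% passed with that allele higher. Of the sites higher in D. melanogaster, 51 of 93 passed with the D. melanogaster allele higher, against 15.4% of all sites. The median gap was 8.75 points in the first set and −8.63 points in the second, and −0.355 over all sites tested. Among sites that the parents edited alike, within 5 points, 28 of 300 passed, and 26.1% of all sites passed in either direction. Without mixed parents replicate 2 the first count dropped from 38 to 23, in a fit that takes the remaining library to vary as the F1 libraries do.

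Gaps pointed the parental way more often than they passed the test. The D. sechellia allele was the higher one at 74 of the 81 sites, and the D. melanogaster allele at 90 of the 93. Libraries of the alleles did not overlap, in the parental direction, at 59 and 73 sites, against 26.8% and 31.5% of all sites tested. More of the sites passed where the parental difference was wide. For differences of 5 to 10 points 15 of 43 and 13 of 43 sites passed, for 10 to 20 points 12 of 26 and 24 of 35, and for 20 points or more 11 of 12 and 14 of 15.

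The widest difference toward D. sechellia was at X 1267594. In the mixed parents its D. sechellia allele stood at 77.8% and 84.3% and its D. melanogaster allele at 15.7% and 9.56%. In the 3 F1 libraries the D. sechellia allele was at 87.5%, 87.1% and 81.5% and the D. melanogaster allele at 15.5%, 6.98% and 9.16%. All libraries of one allele lay above all of the other, and the mean gap was 68.4 ± 8.93 points (SD, n = 2) in the mixed parents and 74.9 ± 4.60 (SD, n = 3) in F1. Quasi-binomial regression gave adjusted p = 1.70e-29 and 1.98e-61 for these alleles. Such small values lean on a spread shared across sites. Adar F1 libraries held at most 17 reads of an allele there, so the site was not tested in them.

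Another pair of X sites lay 17 bases apart and went the same way. At X 3847311 the D. sechellia allele was at 44.2% and 42.1% in the mixed parents, against 3.01% and 5.88% for the D. melanogaster allele. F1 levels were 55.0%, 40.6% and 54.0% against 5.10%, 7.47% and 5.45%, and Adar F1 levels were 52.6%, 38.9% and 45.2% against 5.49%, 0.830% and 2.31%. The alleles did not overlap in any of the 3 groups, and the gap was 38.7 ± 3.55, 43.9 ± 9.27 and 42.7 ± 4.52 points. Its neighbour X 3847328 had a smaller gap that was also present throughout, at 19.99 ± 3.61, 21.4 ± 2.31 and 27.8 ± 3.63 points. Here the D. melanogaster allele was barely edited, with means of 2.63%, 3.37% and 1.14%.

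The other named sites higher in D. sechellia ranged more widely. At 2R 17508581 the D. sechellia allele was at 29.9% and 37.9% in the mixed parents and at 36.4%, 30.1% and 29.8% in F1. Levels of the D. melanogaster allele were 13.8% and 15.9%, then 16.3%, 16.2% and 20.8%. Those gaps of 19.1 and 14.3 points passed in both groups, beside a parental difference of 38.9 points. At 2L 13187691 the D. melanogaster allele was nearly unedited at 1.39% ± 0.588 in the mixed parents and 2.05% ± 1.03 in F1, and the D. sechellia allele was at 28.0% ± 5.99 and 23.7% ± 2.76. At 2L 5363761 the alleles were less clearly separated. The D. sechellia allele was at 43.0% and 55.8% in the mixed parents and the D. melanogaster allele at 41.9% and 27.3%.

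One named site showed no allele difference that passed. At 2L 5363749 the separate parents differed, with 82.6% for D. sechellia and 61.4% for D. melanogaster. In the mixed parents the D. sechellia allele was at 66.2% and 71.6% and the D. melanogaster allele at 77.8% and 70.4%, and the adjusted p of the quasi-binomial fit was 0.698. In F1 the means were 69.9% ± 3.15 and 69.6% ± 2.54 (SD, n = 3; adjusted p = 0.949). Thus 9 of the 10 named sites of this direction passed in the mixed parents and in F1. They were picked for the widest parental differences, and 28 of all 76 sites of this direction tested in both groups passed in both.

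All 10 named sites higher in D. melanogaster passed in both groups. They too were picked for the widest parental differences. Of all 88 sites of this direction tested in both groups 48 passed in both, beside 104 of all 459 sites, in either direction. The widest, 3L 21327037, was edited in the mixed parents at 61.2% and 66.1% on its D. melanogaster allele, and the other allele at 7.14% and 8.24%. In F1 the levels were 70.3%, 64.6% and 70.4% against 6.85%, 5.68% and 7.53%, and in Adar F1 they were 62.6%, 57.0% and 56.8% against 3.52%, 5.06% and 10.3%. The alleles lay far apart in all 8 libraries, and the gap was −56.0 ± 2.65, −61.7 ± 2.43 and −52.5 ± 6.27 points.

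Several of these sites were edited almost solely on the D. melanogaster allele. At 3L 12204771 that allele was at 37.4% ± 1.24, 36.6% ± 5.93 and 29.0% ± 2.37 in mixed parents, F1 and Adar F1, and the D. sechellia allele was at 1.32% ± 0.812, 1.92% ± 0.700 and 3.55% ± 1.72. At 2L 13187842 the D. melanogaster allele was at 26.7% ± 0.748 in the mixed parents and 26.0% ± 0.926 in F1, and the D. sechellia allele at 0.556% ± 0.786 and 0.433% ± 0.750. Other sites were edited on both alleles to different degrees. At 3R 191196 the levels were 54.3% ± 1.62 and 22.7% ± 1.36 in the mixed parents, and at 2L 6002057 they were 41.3% ± 1.299 and 16.0% ± 5.59. At 2L 11796346 they were 33.4% ± 1.12 and 5.19% ± 0.565.

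**Figure D1:**
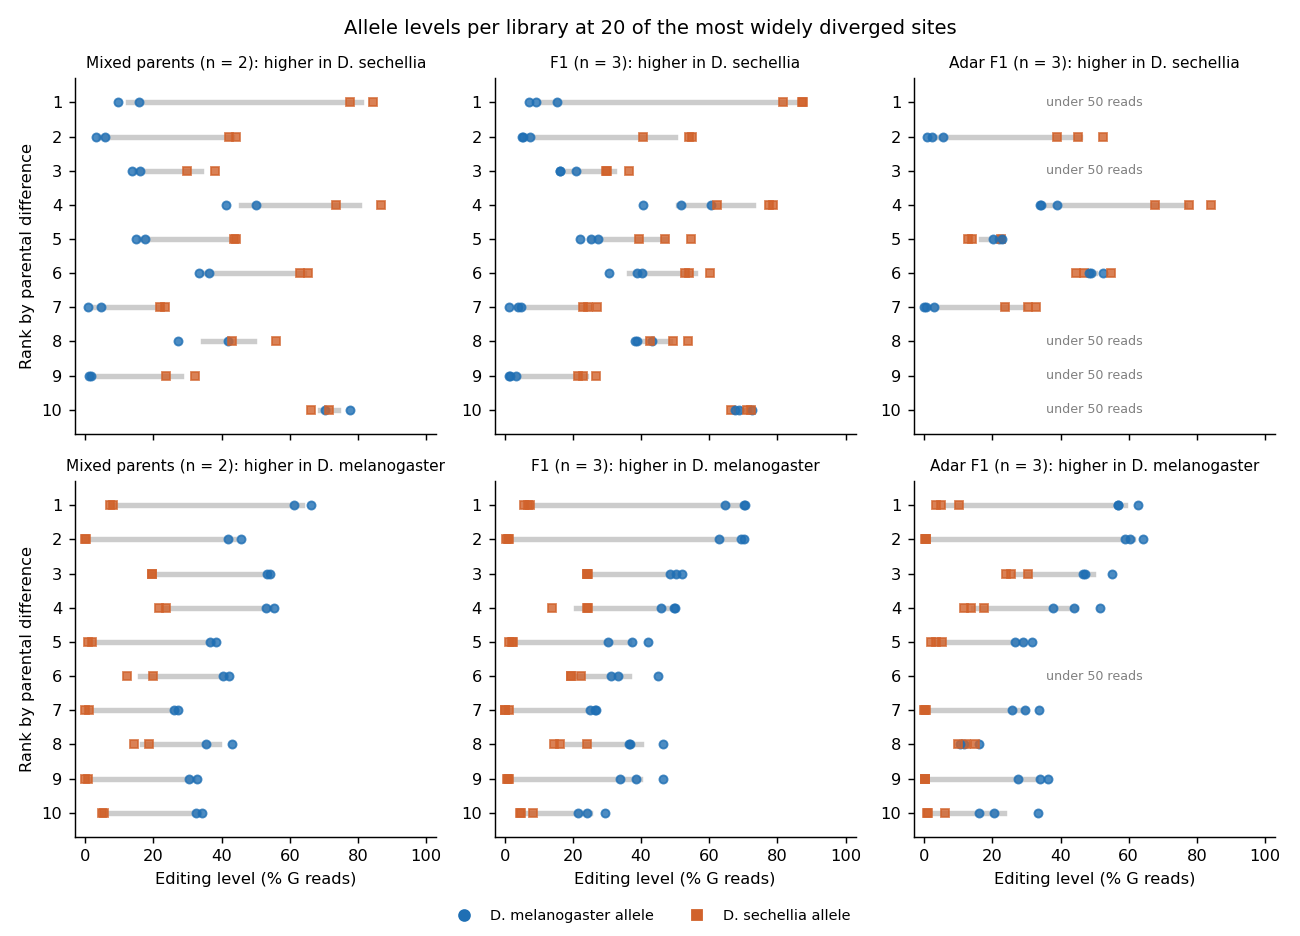
Editing levels (percent of G among A and G reads) of both alleles at the 20 sites named for their parental difference, with 1 point per library, blue circles for the D. melanogaster allele and orange squares for the D. sechellia allele, and a grey bar joining the allele means. Sites are ranked by parental difference from the top, the upper row starting with X 1267594 and the lower with 3L 21327037. The alleles are apart in mixed parents and F1 at most sites, and rank 10 of the upper row (2L 5363749) is where they overlap; panels marked under 50 reads had too few reads in at least 1 Adar F1 library.

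The second question was whether the allele difference remained once both alleles shared the cells of a hybrid. In F1, 40 of 81 sites higher in D. sechellia passed with the D. sechellia allele higher, beside 13.3% of all 504 sites tested. Of those higher in D. melanogaster, 56 of 92 passed with the D. melanogaster allele higher, beside 18.5% of all sites, and none of either set passed the opposite way. Median gaps were 5.91 and −7.97 points, and −0.291 over all sites. Libraries did not overlap in the parental direction at 43 and 61 sites, beside 15.7% and 23.8% of all sites. Among sites edited alike by the parents 48 of 298 passed. Without F1 replicate 3, whose coverage was closer to the mixed parents than to the other F1 libraries, 34 and 53 of these sites passed.

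Calls were shared between mixed parents and F1. Of 76 sites higher in D. sechellia and tested in both groups, 35 passed in the mixed parents and 39 in F1. The 28 that passed in both were 80% of the first list and 71.8% of the second. Of 88 sites higher in D. melanogaster, 51 and 55 passed, and the 48 in common were 94.1% and 87.3% of the lists. In each direction 30 sites passed in neither group. Over all sites tested in both groups, the 104 shared calls of the same direction were 81.2% and 66.7% of the lists, and at sites edited alike by the parents 13 shared calls were 48.1% and 27.7%.

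Averaged over the same sites, gaps kept their direction in every library. Over the 76 sites higher in D. sechellia the mean gap was 9.28 and 10.8 points in the mixed parents, and 7.89, 7.15 and 7.73 in F1. Over the 88 sites higher in D. melanogaster it was −11.4 and −11.8 points in the mixed parents, and −11.3, −10.8 and −10.9 in F1. The F1 values of the first set all lay below the mixed-parent values. Those of the second set were also all smaller in size, though narrowly, with −11.33 against −11.38 at the closest. Site by site, the gap was smaller in F1 at 49 of 76 and at 53 of 88 sites. Across sites, which share libraries and neighbours and are not replicates, mixed-parent and F1 gaps had Pearson correlations of 0.815 and 0.888.

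**Figure D2:**
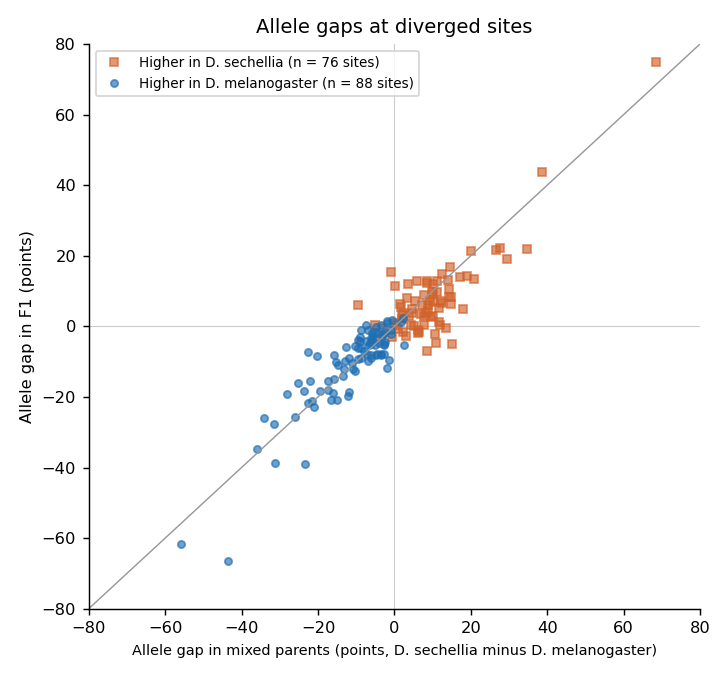
Allele gap (D. sechellia minus D. melanogaster level, percentage points) in F1 against that in mixed parents, with 1 point per diverged site, orange squares for 76 sites higher in D. sechellia and blue circles for 88 sites higher in D. melanogaster. The diagonal marks equal gaps; the far points are X 1267594 at 68.4 and 74.9 points and 3L 21327037 at −56.0 and −61.7.

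No site passed the test of a change of gap between mixed parents and F1. The interaction of allele and group passed at 0 of 76 and 0 of 88 diverged sites and at 0% of all 484 sites in the quasi-binomial regression. At an unadjusted p under 0.05 there were 13 and 9 diverged sites and 45 of all sites, and limma on arcsine-square-root levels also gave 0. Without F1 replicate 3 the count was also 0. This test works on log odds, so that a wide change in points may miss the threshold where 1 allele is near 0%. At 3R 1062097 the gap went from −43.6 to −66.5 points, with adjusted p = 0.894 in the quasi-binomial fit. In simulated data the test found 7.69% of changes of 0.5 in log odds and 45.3% of changes of 1. The count of 0 therefore does not show that gaps stayed the same.

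The sites closest to passing went in both directions. At 3L 20516600 the D. sechellia allele was the higher in the mixed parents (38.2% and 47.8% against 23.7% and 31.8%) and the lower in F1 on average (35.6%, 29.3% and 22.2% against 38.7%, 28.1% and 35.3%). At 2R 3701368 the alleles overlapped in the mixed parents (29.7% and 32.7% against 30.1% and 34.0%) and were apart in F1 (49.0%, 38.8% and 49.2% against 32.6%, 29.0% and 29.4%). The adjusted p was 0.203 at each.

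At 2R 4771250 the D. melanogaster allele was at 27.6% and 30.6% in the mixed parents and at 38.7%, 42.2% and 47.0% in F1, so the libraries did not overlap. At 3R 20533418 it was at 27.0% and 30.5%, then at 15.8%, 15.0% and 16.98%, again without overlap. These changes of gap, −15.6 and 15.4 points, had adjusted p = 0.203. At X 3847283, a weakly edited site, the gap was −8.65 ± 5.11 points in the mixed parents and −0.985 ± 3.39 in F1, with adjusted p = 0.256.

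Levels of each allele were also compared between mixed parents and F1. The D. melanogaster allele rose in F1 at 2 diverged sites, one of 94 tested sites higher in D. sechellia and one of 146 higher in D. melanogaster, which were the only ones among 736 sites (0.272%). The D. sechellia allele changed at 0 of 85 and 0 of 87 diverged sites in the quasi-binomial fit, 0% of 491 sites, with 7 and 2 at an unadjusted p under 0.05, against 21 of all sites, and 0 by limma. The 2 sites that rose, 3R 1062054 and 3R 1062097, lay in the same short stretch. Without F1 replicate 3 the number was 4, and both limma and a replicate block gave 0.

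That stretch of 3R held 4 diverged sites of both directions within 49 bases, from 1062051 to 1062100. The first pair was edited more in D. sechellia. At 3R 1062051 the D. sechellia allele was at 43.6% and 44.1% in the mixed parents and at 47.1%, 54.5% and 39.3% in F1, against 17.6% and 14.8%, then 25.2%, 27.5% and 22.0%, on the D. melanogaster allele. The alleles did not overlap, with gaps of 27.7 ± 2.33 and 22.1 ± 4.90 points. At 3R 1062054 both alleles were highly edited, at 92.9% and 94.0% against 74.8% and 76.2% in the mixed parents. The D. melanogaster allele rose there to 90.3%, 87.7% and 92.7% in F1 (adjusted p = 0.000944, but 0.148 by limma and 0.150 with a replicate block), where the D. sechellia allele was at 96.3%, 95.9% and 93.0%.

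The second pair of that stretch was edited almost solely in D. melanogaster. At 3R 1062097 its allele was at 41.9% and 45.6% in the mixed parents and rose to 69.3%, 62.8% and 70.1% in F1 (adjusted p = 0.000297, but 0.108 by limma and 0.110 with a replicate block). The D. sechellia allele had 0 G among 326 reads in 1 mixed-parent library, which allows up to 0.920%, and it was at most 1.37% in the other 4 libraries. At 3R 1062100 the D. melanogaster allele was at 31.6% ± 1.69 and 39.6% ± 6.33 and the D. sechellia allele at 0.343% ± 0.484 and 0.9697% ± 0.365. The 46 bases between 3R 1062051 and 3R 1062097 thus separated gaps of 27.7 and −43.6 points in the same mixed-parent libraries.

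A similar arrangement was seen on 2L, where 4 diverged sites lay between 3762336 and 3762410. At 2L 3762337 the D. melanogaster allele was higher, with 53.4% and 54.1% against 19.7% and 19.5% in the mixed parents and 50.3%, 52.0% and 48.4% against 24.3%, 24.2% and 24.1% in F1. At 2L 3762371, 34 bases on, the D. sechellia allele was higher, with 65.4% and 63.0% against 33.3% and 36.4%, and in F1 60.2%, 54.1% and 53.0% against 40.2%, 30.6% and 38.9%. Libraries of the alleles did not overlap at either site in either group. The outer pair, shown because it shares the stretch, was weakly edited. Mixed-parent gaps there followed from 6.17% against 2.01% at 2L 3762336, in favour of D. melanogaster, and 6.75% against 15.5% at 2L 3762410, in favour of D. sechellia. Of the 20 stretches with diverged sites of both directions, 7 held sites that passed in opposite directions in the mixed parents, 7 in F1 and 1 in Adar F1. Fewer diverged sites could be tested in Adar F1, 51 and 74 against 81 and 92 in F1, so these counts cannot be compared directly.

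**Figure D3:**
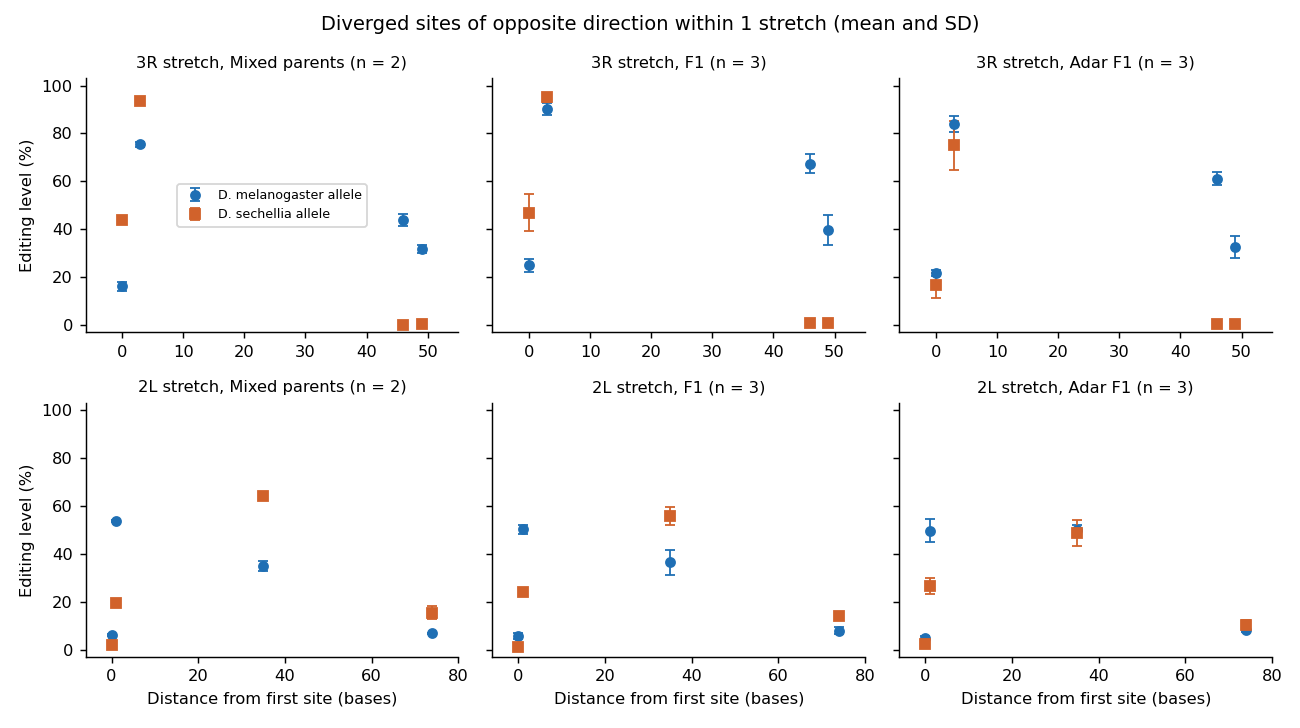
Mean editing level and SD (percent; n = 2, 3 and 3 libraries) of the D. melanogaster allele (blue circles) and the D. sechellia allele (orange squares) at the diverged sites of the 3R stretch (upper row) and the 2L stretch (lower row), against distance in bases from the first site. In mixed parents and F1 the order of the alleles switches along each stretch. In Adar F1 the D. sechellia allele of the first 3R site fell to 16.5% and that of the second to 75.1%, both under the D. melanogaster allele.

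Editing in hybrids with the mutant Adar was examined for each allele. Reads were missing at many of the sites. Both alleles had enough reads in all Adar F1 libraries at 52 of 114 and 74 of 160 sites, against 81 and 92 in F1, and 19 and 8 sites had no read at all in Adar F1. The sites tested here are thus a smaller and different subset.

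More sites fell than rose on either allele in Adar F1. On the D. melanogaster allele 22 of 61 sites higher in D. sechellia passed, with 19 lower and 3 higher in Adar F1, and 34 of 116 sites higher in D. melanogaster passed, with 32 lower and 2 higher. Over all 503 sites tested 24.3% passed, 20.3% lower and 3.98% higher. On the D. sechellia allele 23 of 54 sites higher in D. sechellia passed, 21 lower and 2 higher, but only 8 of 70 sites higher in D. melanogaster, 7 lower and 1 higher. All 355 sites tested gave 16.3%, with 13.5% lower and 2.82% higher. These counts depended on single libraries for the D. melanogaster allele, where the 56 sites became 93 without Adar F1 replicate 1, 34 without F1 replicate 1 and 47 without F1 replicate 3. For the D. sechellia allele the 31 sites became 41 without Adar F1 replicate 1 and 21 without F1 replicate 3.

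Taken site by site, the ratio of the Adar F1 level to the F1 level had medians between 81.1% and 85.9% on either allele. Among 47 sites higher in D. sechellia with both alleles at 1% or more in F1, the ratio of Adar F1 to F1 levels had a median of 84.5% for the D. melanogaster allele and of 81.1% for the D. sechellia allele. Among 58 sites higher in D. melanogaster the values were 83.6% and 84.9%. Sites edited alike by the parents, 154 in number, had medians of 85.9% and 81.1%. The mean level was lower in Adar F1 at 36 of 47 sites on each allele in the first set, and at 49 and 45 of 58 in the second. In points the median changes were −4.57 and −5.74 for the first set and −3.94 and −2.10 for the second. Of the sites tested on both alleles, 12 of 47 and 5 of 57 passed on both, which was 25.5% and 8.77%, beside 29 of all 271 sites and 12 of 153 sites (7.84%) edited alike by the parents.

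Mean levels were also taken per library over sites covered in all 3 groups. Over 49 sites higher in D. sechellia the D. sechellia allele averaged 39.4%, 36.5% and 38.5% in F1 and 34.4%, 30.4% and 29.1% in Adar F1. The D. melanogaster allele averaged 31.1%, 29.7% and 29.8% in F1 and 28.6%, 25.8% and 25.7% in Adar F1. Over 63 sites higher in D. melanogaster the D. melanogaster allele averaged 28.6%, 25.6% and 26.5%, then 25.7%, 21.1% and 22.4%, and the D. sechellia allele 16.5%, 14.2% and 15.2%, then 14.8%, 12.3% and 12.9%. The groups did not overlap over the first set, whereas over the second Adar F1 replicate 1 reached into the F1 range on both alleles.

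**Figure D4:**
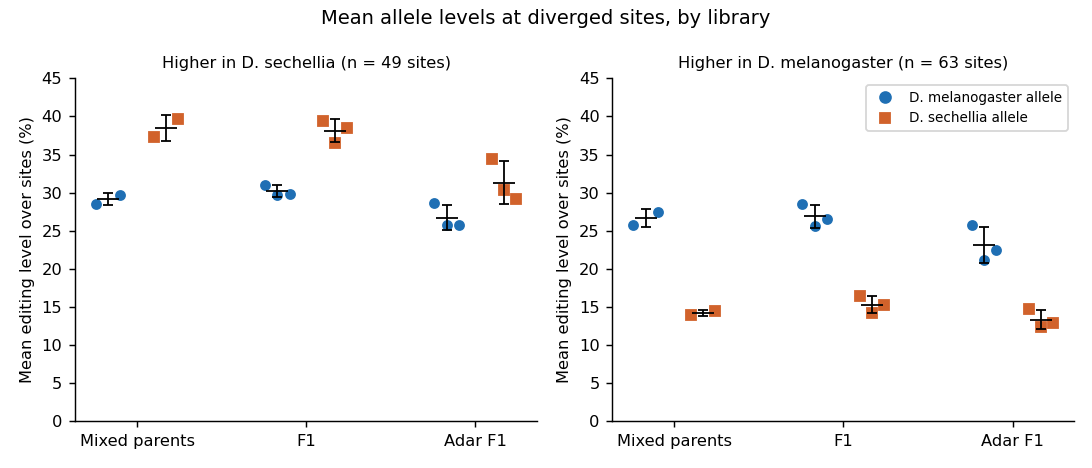
Mean editing level (percent) over diverged sites covered in mixed parents, F1 and Adar F1, with 1 point per library for the D. melanogaster allele (blue circles) and the D. sechellia allele (orange squares), and black bars for the mean and SD over libraries. The left panel holds 49 sites higher in D. sechellia and the right panel 63 higher in D. melanogaster; in Adar F1 the D. sechellia allele of the left panel averaged 31.3% ± 2.79 against 38.1% ± 1.47 in F1.

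The alleles still differed within Adar F1. By the test, the D. sechellia allele was higher at 20 of 51 sites higher in D. sechellia, beside 13.4% of all 337 sites, and the D. melanogaster allele at 44 of 74 sites higher in D. melanogaster, beside 21.1%. In the first set 3 sites passed the opposite way, namely 3L 4590708, 3R 1062051 and 3R 1062054. The call held under every alternative run at 3L 4590708. At 3R 1062051 and 3R 1062054 it was lost by limma (adjusted p = 0.176 and 0.0834) and without the library block (0.215 and 0.176). It was also lost at these sites without Adar F1 replicate 3 (0.390 and 0.144). At 3R 1062051 it was lost too without Adar F1 replicate 2 (0.265) and with the dispersion held at no less than the site's own (0.247). Median gaps were 3.00 and −6.03 points, and −0.383 over all sites. Without Adar F1 replicate 3 the counts were 13 and 27, without Adar F1 replicate 1 they were 14 and 39, and limma gave 13 in the first set. Of the sites tested in all 3 groups, 12 of 48 and 33 of 63 passed in each of them in the parental direction, beside 22.9% of all 280 sites that passed in each with gaps of the same sign. Sites higher in D. sechellia showed mean gaps of 5.83, 4.61 and 3.36 points in Adar F1 against 8.36, 6.89 and 8.71 in F1 over the same 49 sites. Those higher in D. melanogaster showed −11.0, −8.81 and −9.49 against −12.1, −11.4 and −11.3 over 63 sites. The gap was smaller in Adar F1 at 31 of 49 and 41 of 63 sites. A gap in points also shrinks where both alleles fall by the same share, and these counts do not separate that from a change of the relative difference.

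The gap itself changed between F1 and Adar F1 at 7 diverged sites. These were 5 of 50 tested sites higher in D. sechellia and 2 of 66 higher in D. melanogaster, and 4.43% of all 316 sites changed (1.90% upward and 2.53% downward). Upward changes were 1 site of each direction, and downward changes were 4 sites higher in D. sechellia and 1 higher in D. melanogaster. The number was 8 by limma, 3 without F1 replicate 2, 5 without F1 replicate 3 and 6 without Adar F1 replicate 1. Of the 7 sites, 4 kept their call in every alternative fit but at most 1, and the other 3 lost it in several.

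At 3L 4590708 the change lay on the D. melanogaster allele. That allele was at 26.2% and 31.7% in the mixed parents and 26.3%, 24.9% and 29.5% in F1, and rose to 56.8%, 55.7% and 58.7% in Adar F1. Its D. sechellia counterpart was at 36.8% and 35.5%, at 33.5%, 31.8% and 33.8%, and at 35.8%, 32.3% and 31.6%. F1 and Adar F1 overlapped on the D. sechellia allele and lay far apart on the D. melanogaster allele, and the gap turned from 6.14 ± 1.60 to −23.8 ± 3.08 points (adjusted p of the change = 1.05e-11). The other 3 diverged sites of the stretch, 3L 4590648, 3L 4590694 and 3L 4590699, all lay within 60 bases. Their D. melanogaster levels in Adar F1 were 1.91% ± 1.45, 2.58% ± 2.18 and 4.10% ± 0.372, and in none did the gap pass.

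At 3R 1062051 and 3R 1062054 the change lay mainly on the D. sechellia allele. The first fell on that allele to 22.6%, 14.0% and 12.9% in Adar F1, while the D. melanogaster allele was at 22.0%, 22.9% and 20.3%, with no overlap between F1 and Adar F1 on the D. sechellia allele. Its gap went from 22.1 ± 4.90 to −5.20 ± 5.15 points (adjusted p = 9.57e-16). The second fell on the D. sechellia allele to 86.7%, 71.6% and 67.2% and on the D. melanogaster allele to 87.6%, 82.8% and 81.5%. For its gap the adjusted p was 1.63e-06, but 0.0803 by limma and 0.403 without F1 replicate 2. Across the stretch the change of gap passed at neither site of the other pair, with the D. melanogaster allele at 64.2%, 60.3% and 58.9% at 3R 1062097 and no D. sechellia library over 0.647%.

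At 2L 3762371 the alleles came to overlap. The D. melanogaster allele rose to 52.6%, 49.0% and 48.4% and the D. sechellia allele was at 54.8%, 46.9% and 44.6%. The gap went from 19.2 ± 4.79 to −1.23 ± 3.12 points (adjusted p = 3.14e-09). Its neighbour at 2L 3762337 had a gap of −26.0 ± 1.75 points in F1 and −23.1 ± 1.49 in Adar F1, a change that did not pass (adjusted p = 0.754).

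At 2R 11759340 both alleles rose. In F1 the D. melanogaster allele was at 9.19%, 12.7% and 17.1% and the D. sechellia allele at 16.5%, 14.1% and 15.4%. In Adar F1 they were at 55.8%, 55.6% and 56.8%, and at 38.0%, 30.4% and 37.3%, so neither allele overlapped between the groups. The gap went from 2.34 ± 4.54 to −20.9 ± 3.85 points (adjusted p = 0.000310, and 0.101 without F1 replicate 2). The reads moved too. Counts of D. melanogaster reads were 185, 181 and 205 in F1 and 926, 1120 and 799 in Adar F1, while the D. sechellia allele had 182, 192 and 272, then 79, 92 and 67, and the part of this shift in the result was not tested.

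The remaining changes were nearer the threshold. At 2R 7335492 the gap was 21.8 ± 4.93 points in F1 and 40.8 ± 6.36 in Adar F1, as the D. melanogaster allele fell from 60.4%, 40.6% and 51.9% to 38.9%, 33.9% and 34.1%, and its adjusted p of 0.0476 was 0.0508 with a minimum of 20 reads and 0.549 without F1 replicate 2. At 2L 6002117 the gap closed from −21.6 ± 1.09 to −0.455 ± 1.01 points. The D. melanogaster allele fell there from 46.5%, 36.7% and 36.5% to 11.8%, 10.5% and 16.2%, with the D. sechellia allele at 24.2%, 16.3% and 14.4%, then 12.4%, 9.95% and 14.8%. The adjusted p of 0.0257 was 0.279 without F1 replicate 2 and 0.125 without Adar F1 replicate 1.

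**Figure D5:**
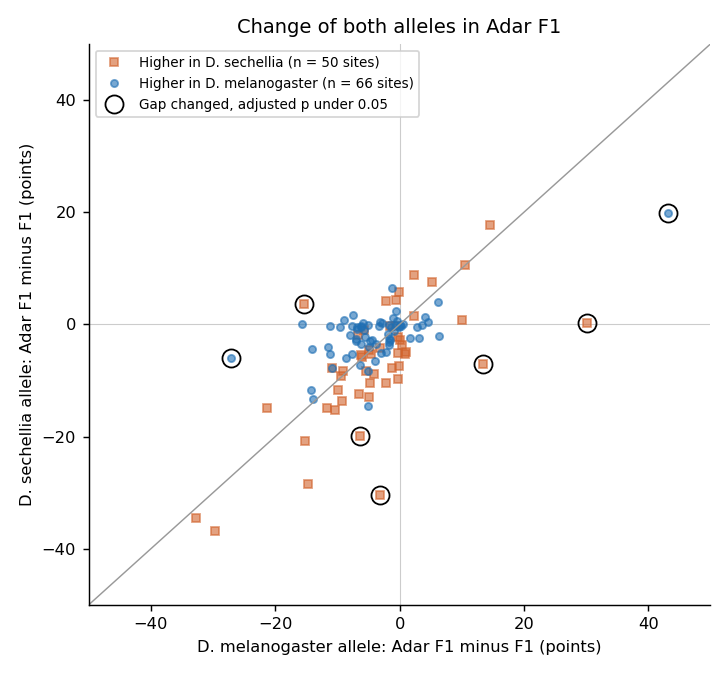
Change of the D. sechellia allele against change of the D. melanogaster allele between F1 and Adar F1 (percentage points), with 1 point per diverged site, orange squares for sites higher in D. sechellia and blue circles for those higher in D. melanogaster. The diagonal marks equal change of both alleles and black rings mark the 7 sites whose gap changed. Most points lie to the lower left of 0, and the ringed point at 43.1 and 19.9 points is 2R 11759340.

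Both alleles fell together in a stretch of 3L. At 3L 9826400 editing of the D. melanogaster allele was 46.6%, 40.0% and 40.4% in F1 and 22.3%, 7.80% and 7.87% in Adar F1, and that of the D. sechellia allele went down from 57.7%, 52.3% and 51.3% to 24.4%, 13.8% and 12.5%. The adjacent 3L 9826401 fell from 59.7% ± 5.69 to 26.9% ± 11.5 and from 71.9% ± 2.96 to 37.3% ± 8.31. At 3L 9826394, which was higher in D. melanogaster, the means fell from 18.9% to 4.96% and from 17.9% to 4.54%. No library overlapped between F1 and Adar F1 at these sites, and Adar F1 replicate 1 was the highest of its group on both alleles of each. The change of gap passed at none of the 3.

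Other named falls lay outside that stretch. At 2R 3467301, where only this allele had enough reads, the D. melanogaster allele was at 59.8%, 53.2% and 28.6% in F1 and at 2.03% and 0.806% in Adar F1 replicates 1 and 3 (adjusted p = 4.10e-05). Replicate 2 had 0 G among 125 reads, which allows up to 2.40%. At 2R 13262386 it fell from 30.7% ± 3.604 to 12.997% ± 3.65. At 3L 9662076 both alleles fell, the D. melanogaster allele from 72.6% ± 4.52 to 51.3% ± 6.28 and the D. sechellia allele from 79.1% ± 2.92 to 64.2% ± 4.54. On chromosome 4, position 909692 fell from 50.1% ± 1.94 to 35.9% ± 2.94 on the D. melanogaster allele and from 29.2% ± 3.13 to 17.6% ± 2.07 on the D. sechellia allele. At 3L 9885234 the D. sechellia allele fell from 46.9% ± 7.76 to 32.4% ± 6.90, and the D. melanogaster allele was at 48.9% ± 3.34 and 43.9% ± 1.09, a change that did not pass.

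Rises were few. At 2L 7230012 both alleles rose in Adar F1, from 51.3% ± 2.64 to 65.8% ± 3.80 on the D. melanogaster allele and from 51.6% ± 5.55 to 69.3% ± 7.59 on the D. sechellia allele. At 3R 23500458 the D. sechellia allele rose from 63.1%, 58.0% and 59.5% to 87.9%, 82.8% and 85.6%. That site had no D. melanogaster read in any Adar F1 library, against 116 to 170 in F1, and its D. sechellia reads went from 65 to 116 up to 353 to 455. At 2R 8646087 the D. melanogaster allele rose from 33.7% ± 2.65 to 40.5% ± 1.84, with adjusted p = 0.0389.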

How the data were processed

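Editing was measured by mmPCR-seq in 12 libraries of fly heads. Per the file headers, the authors deposited for each library and site the counts of A and G reads of each species' sequence, together with an editing percent for each. The deposited counts are whole numbers without normalization, and the deposited percentage equals the G share to 1 decimal, so it was recomputed from the counts. Alignment used BWA and the build is dm3, per the submitters' processing notes; how a read was given to a species is not given in the sources used here.

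Groups came from the sample titles. The 274 sites and all choices below were made with earlier results of these data known. Each site was fitted with a quasi-binomial logistic regression in R 4.3.3. Dispersions were squeezed across sites on a trend with coverage by the method of limma 3.58.1, with a minimum of 1 and a prior taken from sites whose fitted levels lay inside 0 to 100%. F tests were adjusted by Benjamini-Hochberg over all sites tested, with a threshold of 0.05. Comparisons of alleles and of gaps kept the library as a block. Sites needed 50 reads per allele and library and a mean level of 1%. The procedure was tested on simulated data.

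Named for each direction were the 10 widest parental differences tested in mixed parents and F1, with at most 2 per stretch. Also named were up to 5 called changes of gap, or the 3 with the smallest p, up to 3 rises and 3 falls per allele in Adar F1, calls against the parental direction, and sites at the thresholds. Alternatives were read minimums of 20 and 100, no level minimum, and limma on arcsine-square-root levels. Others were no library block for alleles within a group, a replicate block for the other comparisons, and leaving out each library. Added after the data were seen were a dispersion of at least the site's own and F1 replicate 3 alone against the mixed parents. Limits for a level of 0 allow 3 reads and cover counting error only.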

Additional observations from a re-analysis of the deposited data

Results flagged for a closer look

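The gap between the alleles differed between F1 and Adar F1 at 7 diverged sites by the test of the change itself. These were 5 of 50 and 2 of 66 tested sites of the 2 directions, beside 4.43% of all 316 sites tested. At 2R 7335492, 2L 6002117 and 3R 1062054 the call was lost in several alternative fits. The gap moved toward D. melanogaster by −20.4 points at 2L 3762371, by −29.99 at 3L 4590708, by −27.3 at 3R 1062051, by −13.6 at 3R 1062054 and by −23.2 at 2R 11759340. It moved toward D. sechellia by 21.1 points at 2L 6002117 and by 19.0 at 2R 7335492. Coverage over sites also differed between these groups, and its part in the changes was not tested.

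Reads given to the other species were present in libraries of a single species, where none should occur. At the diverged sites they made up 0.314% of the reads of the D. melanogaster libraries and 1.69% of those of the D. sechellia libraries. Replicate 1 of D. sechellia held 2.93% and replicate 2 held 0.273%.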

How the results depend on the processing

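Of 124 counts of diverged sites recomputed under an alternative, 109 stayed within 1.5 times the reported count. Among the 109 were counts of 0 that stayed 0, for changes of gap and of the D. sechellia allele between mixed parents and F1. At named sites no called effect changed sign, and 108 site calls were lost and 14 gained among 3021 refits. Those refits include sites not called in the main fit, so they do not give the share of calls that was lost. The following counts moved further. With at least 100 reads, 25 and 31 sites passed in the mixed parents (38 and 51 reported), 37 sites higher in D. melanogaster passed in F1 (56) and 4 gaps changed in Adar F1 (7), with fewer sites tested. Sites higher in D. sechellia within Adar F1 numbered 13 by limma on arcsine-square-root levels and 11 with no library block (20). The cause was not tested. The 2 rises of the D. melanogaster allele in F1 became 0 by limma and 0 with a replicate block.

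Leaving out 1 library gave 23 to 29 and 35 to 39 sites in the mixed parents, 30 to 34 and 42 to 53 in F1, and 13 to 15 and 27 to 40 in Adar F1. Changes of gap were 0 to 0 for F1 and 3 to 6 for Adar F1, and allele changes were 34 to 93 and 21 to 41 in Adar F1 and 2 to 4 and 0 to 0 in F1. Same-numbered replicates did not visibly deviate together. Correlations were −0.060 to −0.034 between mixed parents and F1 and 0.00703 to 0.0649 between F1 and Adar F1. Such correlations cannot exclude a pairing of the samples by number. A replicate block gave 6 changes of gap, 58 and 32 allele changes in Adar F1, and 0 changes of gap in F1. With dispersion of at least the site's own, chosen after seeing the data, 34 and 48, 35 and 53, and 17 and 41 sites passed in mixed parents, F1 and Adar F1, and 5 gaps changed in Adar F1. Read depth left 38 of 114 and 72 of 160 sites untested for the change of gap between mixed parents and F1. F1 replicate 3 alone against the mixed parents, chosen after seeing the data, gave 0 changes of gap and 2 and 0 allele changes; its spread comes from the mixed parents alone, so these counts say nothing about stability.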
